A study of Mus musculus with 4 samples.

Results

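The genes described here are 10 that make or sense 2 groups of lipid messengers, the prostaglandins and the leukotrienes, and they were taken by name from the deposited count table of 21834 protein-coding genes. All 10 were present and all 10 were tested, although Alox5 passed the filter on low counts only through the libraries labelled Nat10 conditional knockout (cKO), in which it was higher. RNA was sequenced from mouse bone marrow derived monocytes that had been driven towards osteoclasts for 3 days with RANKL, the cytokine that turns these macrophage precursors into bone-resorbing cells. There were 2 libraries labelled Nat10 conditional knockout and 2 labelled wild type (WT), and the comparison asks what the loss of Nat10, the enzyme that writes the RNA modification N4-acetylcytidine, does to transcripts during osteoclast formation. All 4 libraries came from cells given RANKL and washed in buffer with cycloheximide before lysis, so no untreated or unwashed culture was compared. The sources used here do not state the Cre driver, the deleted exons, or the sex and age of the mice. They also do not say whether replicate libraries stem from different animals, so p-values reflect library-to-library spread, which may be technical.

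Both messenger groups start from arachidonic acid, a fatty acid that cytosolic phospholipase A2 cuts from membrane lipids. Cyclooxygenases turn it into the prostaglandin precursor PGH2, from which prostaglandin E synthases make PGE2, and PGE2 acts on neighbouring cells through the receptors EP1 to EP4. The enzyme 5-lipoxygenase, helped by its activating protein, turns the same acid into leukotriene A4, from which leukotriene A4 hydrolase makes leukotriene B4 and leukotriene C4 synthase makes leukotriene C4. In bone, PGE2 is known to favour osteoclast formation in mouse cultures, and cyclooxygenase 2 is the form that inflammatory signals induce in macrophages.

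Total counts ranged from 10037338 to 14097638 per library. Nat10 itself had 184 and 205 counts in the libraries labelled cKO and 165 and 238 in WT, and its log2 fold change was -0.24 (95% interval -0.56 to 0.08, SE 0.153, edgeR adjusted p = 0.263). Counts summed over the gene cannot show whether single exons were lost, so groups go by their labels, and so does every direction given. For the marker counts that follow, 28.8% of all tested genes were called at an edgeR adjusted p under 0.05, 14.4% higher and 14.4% lower. All 10 osteoclast markers listed were tested, 6 of them higher and 2 lower (4 and 0 when WT replicate 2 was left out, 4 and 1 without WT replicate 1), and Acp5, the acid phosphatase used to stain osteoclasts, had a mean of 2913 CPM in the libraries labelled cKO and 1973 CPM in WT. Of 10 macrophage markers 4 were higher and 3 lower (2 and 3 without WT replicate 1), summing to 6742 to 6832 CPM against 5309 to 5463 CPM, and of 8 monocyte markers 4 were higher and 1 lower (1 and 1 without WT replicate 2), at 336 to 341 against 219 to 236 CPM. Markers of other cells moved with the groups, and in bulk RNA more cells of a type and more RNA per cell cannot be told apart. The summed level of 15 stromal and osteoblast markers was 1693 to 1801 CPM in the libraries labelled cKO and 458 to 519 CPM in WT, with Bglap at 0. Of 13 tested 12 were higher (10 in DESeq2), and fewer when any 1 library was left out. Of the 12, 3 (Pdgfra, Sp7, Alpl) passed the filter on low counts only through the libraries labelled cKO, as fewer than 2 WT libraries reached its cutoff. This favours a higher level in the libraries labelled cKO. The summed level of 12 neutrophil markers was 1985 to 2273 CPM against 1488 to 1517 CPM, with 7 of 9 tested higher and 1 lower (6 and 1 in DESeq2). Fewer were higher when cKO replicate 1 or either WT library was left out. Of the 7, Prtn3 and Cxcr2 passed the filter only through the libraries labelled cKO. Of 7 dendritic cell markers 3 were tested and 1 fell (30.4 to 30.6 against 32.7 to 36.1 CPM). Of 11 lymphocyte and erythroid markers 2 were tested and 0 passed in edgeR, at an unadjusted p under 0.05, or in DESeq2 or limma-voom (4.48 to 4.53 against 2.45 to 3.76 CPM).

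Of the 10 genes, 3 rose and 2 fell in the libraries labelled Nat10 cKO, and 5 did not pass the test. Alox5ap, Lta4h and Ptger4 rose, and Ptgs2 and Ptges3 fell. Across all 11448 tested genes the same test (edgeR quasi-likelihood, Benjamini-Hochberg adjusted p under 0.05) called 28.8%, with 14.4% higher and 14.4% lower, so calls were common in this comparison. These are 1652 higher and 1650 lower, where upper-quartile scaling gave 2247 and 1110 and plain library size 2026 and 1252, while the calls among the 10 genes were the same. The 10 genes had a median log2 fold change of 0.03, against 0.0075 for all tested genes, and ranged from -1.53 to 1.31. The groups did not overlap for 9 of the 10, where 63.6% of all tested genes did not overlap. Of the 9, Alox5 passed the filter on low counts only through the libraries labelled cKO, so its groups could not overlap. A positive log2 fold change means a higher level in the libraries labelled cKO, SE is its standard error, and levels are CPM, counts divided by library size with TMM factors. Gene positions are those of the deposited table (GRCm39).

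**Figure D1:**
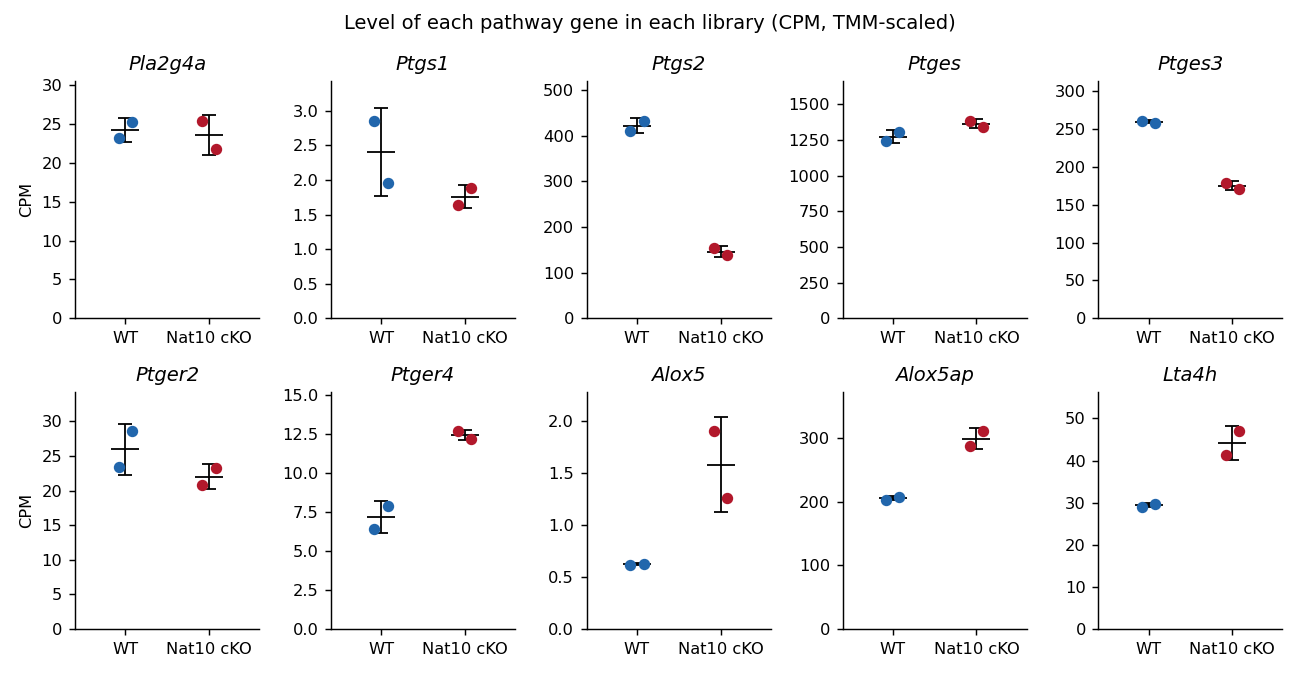
Level of each of the 10 genes in CPM (y axis, from 0, a different scale in each panel) in the 2 WT libraries (blue) and the 2 libraries labelled Nat10 cKO (red), with the group mean (dash) and SD (bars). Ptgs2 stands at 411 and 434 CPM in WT and 154 and 138 CPM in the libraries labelled cKO, while the 2 groups of Pla2g4a overlap.

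Pla2g4a (ENSMUSG00000056220, chromosome 1, 149705369 to 149837041, minus strand), the cytosolic phospholipase that supplies the arachidonic acid, measured 25.4 and 21.7 CPM in the libraries labelled cKO and 23.2 and 25.3 CPM in WT. The groups overlapped, and the log2 fold change of -0.05 did not pass (95% interval -0.33 to 0.24 with SE 0.138, edgeR adjusted p = 0.841). The interval leaves out a change of the size seen in Ptgs2.

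Ptgs2 (ENSMUSG00000032487, chromosome 1, 149975782 to 149983978, plus strand), which encodes cyclooxygenase 2, showed the lowest p of the 10 genes. It had 1790 and 1977 counts in the libraries labelled cKO and 4026 and 5537 in WT, which is 154 and 138 CPM against 411 and 434 CPM. Both libraries labelled cKO lay far below both WT libraries, with little spread inside either group. The mean was 146 ± 11.8 CPM (SD, n = 2) against 422 ± 16.0 CPM, so WT was 2.89 times as high. The log2 fold change was -1.53 (95% interval -1.74 to -1.33 with SE 0.0986, edgeR adjusted p = 1.42e-09). Ranked by p it was number 43 of the 11448 tested genes, and 4.32% of them had a larger absolute fold change.

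Ptgs1 (ENSMUSG00000047250, chromosome 2, 36120438 to 36142284, plus strand), which encodes cyclooxygenase 1, the form that most cells make without a stimulus, had few reads, 19 and 27 counts in the libraries labelled cKO and 28 and 25 in WT. Scaled to CPM these were 1.64 and 1.88 against 2.86 and 1.96, so the groups stood next to each other without overlap. Its log2 fold change of -0.42 did not pass (95% interval -1.27 to 0.42 with SE 0.401, edgeR adjusted p = 0.473), and at these counts a change of the size seen in Ptges3 would lie inside the interval. Within a library the number of Ptgs2 reads for each Ptgs1 read does not depend on scaling between libraries. It was 94.2 and 73.2 in the libraries labelled cKO and 144 and 221 in WT, so Ptgs2 made up nearly all cyclooxygenase reads in every library. An exact permutation test over 2 against 2 libraries, two-sided, gave p = 0.333, the smallest it can give.

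Ptges (ENSMUSG00000050737, chromosome 2, 30779483 to 30819875, minus strand), the gene of microsomal prostaglandin E synthase 1, the inducible enzyme that works after cyclooxygenase 2, did not pass the test. It had 1386 and 1344 CPM in the libraries labelled cKO and 1239 and 1307 CPM in WT. The libraries labelled cKO were slightly higher, the groups did not overlap, and the log2 fold change of 0.10 did not pass (95% interval -0.09 to 0.29 with SE 0.0910, edgeR adjusted p = 0.453). The interval leaves out a fall of the size seen in Ptgs2 or in Ptges3. Reads of Ptges for each Ptgs2 read were 8.98 and 9.76 in the libraries labelled cKO and 3.01 in each WT library, a ratio chosen after its values were seen, with the same smallest exact permutation p = 0.333.

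Ptges3 (ENSMUSG00000071072, chromosome 10, 127894823 to 127913141, plus strand) encodes cytosolic PGE synthase, better known as p23, a co-chaperone of the heat shock protein Hsp90. It had levels of 179 and 171 CPM in the libraries labelled cKO and 262 and 259 CPM in WT, with no overlap and a small spread inside each group. Its log2 fold change was -0.57 (95% interval -0.77 to -0.37 with SE 0.0941, edgeR adjusted p = 0.000155). The genome holds a pseudogene, Ptges3-ps, and how reads shared with it were counted is not stated, so the level is uncertain to that extent.

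**Figure D2:**
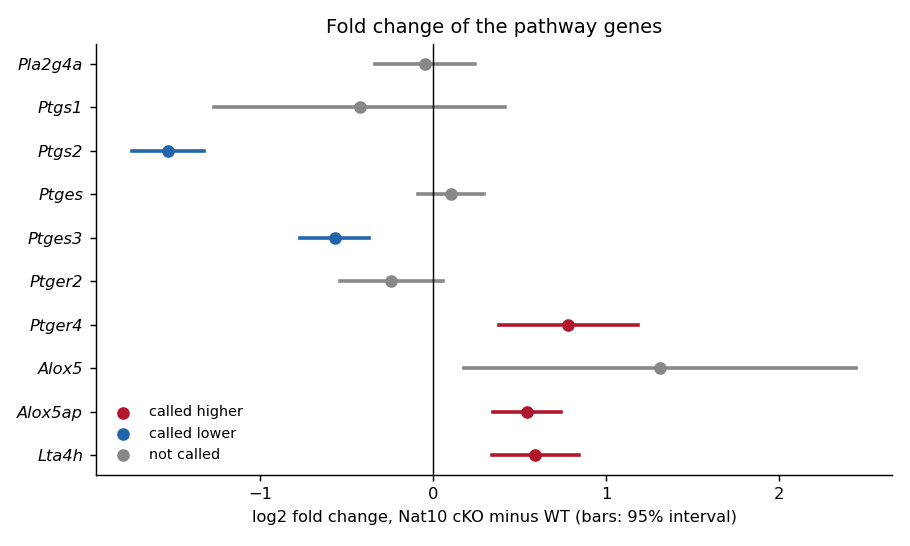
Log2 fold change of each of the 10 genes, positive where the libraries labelled Nat10 cKO were higher (x axis), with its 95% interval not adjusted for the number of genes (bars), red where called higher, blue where called lower and grey where not called. Ptgs2 at -1.53 stands apart from the other 9, and the widest intervals belong to Ptgs1 and Alox5, the genes with the fewest counts.

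Of the 2 PGE2 receptor genes among the 10, 1 rose and 1 did not pass. Ptger4 (ENSMUSG00000039942, chromosome 15, 5236142 to 5273668, minus strand), the gene of EP4, a receptor that raises cyclic AMP, had 147 and 175 counts in the libraries labelled cKO and 63 and 101 in WT. Its level was 12.7 and 12.2 CPM against 6.43 and 7.91 CPM, so both libraries labelled cKO lay above both WT libraries. The log2 fold change was 0.78 (95% interval 0.38 to 1.18 with SE 0.190, edgeR adjusted p = 0.00460). Ptger4 shares 11676 bases of its locus with Ttc33 on the other strand. Whether reads were counted by strand is not stated in the sources at hand. How reads that fall in these shared bases were assigned to the 2 genes is therefore not known. Ttc33 had levels of 25.3 and 25.8 CPM in the libraries labelled cKO and 25.9 and 28.6 CPM in WT (log2 fold change -0.10, edgeR adjusted p = 0.628).

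Ptger2 (ENSMUSG00000037759, chromosome 14, 45225652 to 45241277, plus strand), the gene of EP2, the other PGE2 receptor that raises cyclic AMP, had levels of 20.8 and 23.3 CPM in the libraries labelled cKO and 23.4 and 28.6 CPM in WT. The groups did not overlap but nearly touched, and the log2 fold change of -0.24 did not pass (95% interval -0.54 to 0.05 with SE 0.141, edgeR adjusted p = 0.221). Ptger4 reads for each Ptger2 read were 0.610 and 0.524 in the libraries labelled cKO and 0.275 and 0.277 in WT, again chosen after the values were seen and with the smallest exact permutation p = 0.333. Of the other 2 PGE2 receptors, Ptger1 (EP1) had 8 to 11 counts per library and Ptger3 (EP3) had 0 to 6.

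On the leukotriene side, the genes that act on either side of 5-lipoxygenase rose. Alox5ap (ENSMUSG00000060063, chromosome 5, 149201577 to 149224963, plus strand) encodes the 5-lipoxygenase activating protein, which hands arachidonic acid to the enzyme. It had levels of 287 and 311 CPM in the libraries labelled cKO and 203 and 207 CPM in WT, with no overlap. The log2 fold change was 0.54 (95% interval 0.34 to 0.74 with SE 0.0945, edgeR adjusted p = 0.000265).

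Lta4h (ENSMUSG00000015889, chromosome 10, 93289273 to 93320737, plus strand), leukotriene A4 hydrolase, makes the neutrophil attractant leukotriene B4. It had levels of 41.3 and 47.0 CPM in the libraries labelled cKO and 29.0 and 29.7 CPM in WT, and again both libraries labelled cKO lay above both WT libraries. Its log2 fold change was 0.59 (95% interval 0.34 to 0.84 with SE 0.120, edgeR adjusted p = 0.00111), close in size to that of Alox5ap.

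Alox5 (ENSMUSG00000025701, chromosome 6, 116387038 to 116438139, minus strand), the gene of 5-lipoxygenase itself, had 22 and 18 counts in the libraries labelled cKO and 6 and 8 in WT, the lowest counts of the 10 genes. Its level was 1.90 and 1.25 CPM against 0.613 and 0.627 CPM. It passed the filter on low counts only through the libraries labelled cKO, so the groups could not overlap and the direction was fixed. The log2 fold change of 1.31 did not pass (95% interval 0.18 to 2.44 before adjustment, with SE 0.539 and unadjusted p = 0.0254, edgeR adjusted p = 0.0770). Reads of Alox5ap for each Alox5 read were 151 and 248 in the libraries labelled cKO and 332 and 331 in WT, a ratio also chosen after the values were seen (exact permutation p = 0.333, the smallest possible). Neutrophils carry much Alox5, and in the same libraries 7 of 9 tested neutrophil markers were higher and 1 lower. Their median log2 fold change was 1.01, with 88.9% called against 28.8% of all tested genes. Of the 7, Prtn3 and Cxcr2 passed the filter on low counts only through the libraries labelled cKO. S100a8 had a mean of 401 against 200 CPM and Lcn2 of 1268 against 1010 CPM, while Mmp8 was lower, at 19.2 against 34.3 CPM, and Camp did not pass, at 22.4 against 23.1 CPM (Mmp8 and Camp, and the platelet and other markers described with the rest of the pathway, were chosen after their values were seen). Their part in these 3 results was not tested.

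**Figure D3:**
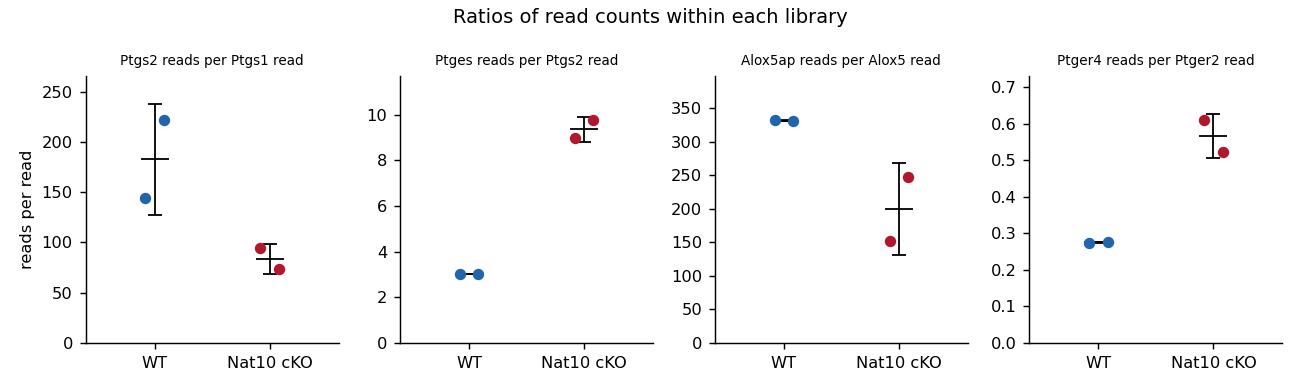
Ratios of read counts between 2 genes of the same library (y axes, reads of the first gene for each read of the second, from 0) in WT (blue) and in the libraries labelled Nat10 cKO (red), with mean and SD. The ratio of Ptges to Ptgs2 is 3.01 in both WT libraries and 8.98 and 9.76 in the libraries labelled cKO, and in each of the 4 panels the groups do not overlap.

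Levels can be compared between genes only per length, so CPM were divided by the exon length of each gene in kilobases. On this scale (CPM per kb, a level) Ptges was the highest of the 10 in both groups, at 347 ± 7.58 in the libraries labelled cKO and 324 ± 12.2 in WT, and 1.29% of 11435 ranked genes were higher. Alox5ap came next at 211 ± 11.7 and 145 ± 2.13, then Ptges3 at 79.0 ± 2.66 and 117 ± 0.923, and Ptgs2 at 31.9 ± 2.57 and 92.2 ± 3.48. These 4 kept that order in both groups, with gaps wider than the spread. The remaining 6 lay far lower. Lta4h stood at 7.23 ± 0.654 in the libraries labelled cKO, above Ptger2 at 4.24 ± 0.338, while in WT Lta4h (4.75 and 4.86) lay within the range of Ptger2 (4.50 and 5.51). Pla2g4a had 3.69 ± 0.410 and 3.79 ± 0.234, and in the libraries labelled cKO its gap to Ptger2 was no wider than the spread. Ptger4 followed at 1.87 ± 0.0517 and 1.08 ± 0.157. Alox5 (0.462 and 0.305) overlapped Ptgs1 (0.422 and 0.484) in the libraries labelled cKO and lay below it in WT. The 5-lipoxygenase transcript was thus scarce beside that of its activating protein in every library.

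Sequence was taken for the genes that passed the test, to show what lies in front of genes that moved in opposite directions. RefSeq windows of 300 bases, 250 before and 50 after the annotated start, were at hand for 9 of the 10 genes, with Alox5ap the missing entry. The 250 bases before the start are printed 5′ to 3′ on the strand of the gene (build GRCm38.p6), for Ptgs2 at chr1:150099781-150100030 (plus strand), Ptges3 at chr10:128058732-128058981 (plus strand), Lta4h at chr10:93453146-93453395 (plus strand) and Ptger4 at chr15:5244188-5244437 (minus strand). Capitals mark a match, on either strand, to a motif searched.
Ptgs2: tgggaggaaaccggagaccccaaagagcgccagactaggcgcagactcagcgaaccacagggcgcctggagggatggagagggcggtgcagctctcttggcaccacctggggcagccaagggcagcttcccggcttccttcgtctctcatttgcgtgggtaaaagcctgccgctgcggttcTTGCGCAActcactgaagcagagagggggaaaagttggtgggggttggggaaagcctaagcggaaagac
Ptges3: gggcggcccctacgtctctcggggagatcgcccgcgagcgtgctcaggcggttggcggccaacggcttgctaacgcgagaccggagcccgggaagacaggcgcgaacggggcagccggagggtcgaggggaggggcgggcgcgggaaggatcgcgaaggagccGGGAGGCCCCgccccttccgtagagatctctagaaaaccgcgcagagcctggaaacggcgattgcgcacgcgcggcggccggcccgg
Lta4h: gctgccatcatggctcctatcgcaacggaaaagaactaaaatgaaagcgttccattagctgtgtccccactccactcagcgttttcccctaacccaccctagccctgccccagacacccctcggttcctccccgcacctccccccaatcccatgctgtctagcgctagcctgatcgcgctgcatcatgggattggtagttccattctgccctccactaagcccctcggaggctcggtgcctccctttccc
Ptger4: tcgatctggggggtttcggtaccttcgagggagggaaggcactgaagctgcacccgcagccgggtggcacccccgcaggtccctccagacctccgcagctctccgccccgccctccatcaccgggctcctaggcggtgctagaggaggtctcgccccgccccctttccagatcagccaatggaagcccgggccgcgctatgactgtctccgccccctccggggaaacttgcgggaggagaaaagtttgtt
The Ptgs2 window held TTGCGCAA, the palindrome bound by C/EBP factors, at -69 to -62 from the start, a match found in 0.183% of 32851 promoter windows of the same length. It also held the E-box CACGTG (7.15% of windows) at 17 to 22 after the start, where it overlaps the short cyclic AMP response core TGACG (20.8% of windows) read on the other strand at 14 to 18. The Ptges3 window held 1 NF-kappa B site at -87 to -78 (8.46% of windows) and TGACG on the other strand at 12 to 16 after the start. Neither the Lta4h nor the Ptger4 window held any of the motifs searched, which were these and the full cyclic AMP response element TGACGTCA (1.79% of windows), the AP-1 site TGANTCA (7.81%), the TATA box with the letters TATAAA (13.6%) and the interferon-stimulated response core (3.44%). Matches describe these letters only.

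The rest of the pathway was read from 4 lists of 74 other genes, 45 of which were tested. Of those, 11 rose and 6 fell (37.8% called, against 28.8% of all tested genes), with a median log2 fold change of 0.12. Without WT replicate 2 the rising genes numbered 7. Mast cells make many eicosanoids, and their defining markers Cpa3, Cma1 and Tpsb2 had 0 counts in every library. Of the 11 mast cell, basophil and megakaryocyte markers 5 were tested, and the platelet genes Pf4 and Ppbp were higher (1 gene when cKO replicate 1 or either WT library was left out). Kit (0.02), Gata2 (-0.0049) and Itga2b (0.04) did not pass. The summed level was 158 to 194 CPM in the libraries labelled cKO and 64.5 to 70.2 CPM in WT, most of it Pf4, at 148 and 180 against 54.9 and 61.2 CPM, and the part of these markers in the results was not tested.

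Among 17 tested genes of arachidonate release and reacylation, 5 rose and 2 fell (median 0.21, 41.2% called against 28.8% of all tested genes). Pla2g15, the lysosomal phospholipase A2, rose by 0.65 on the log2 scale (SE 0.105, 86.3 against 54.9 CPM), and Daglb, a diacylglycerol lipase, rose by 0.85 (SE 0.152, 29.7 against 16.3 CPM). Mgll, the monoacylglycerol lipase that frees arachidonic acid from an endocannabinoid, fell by 0.95 (SE 0.223, 4.46 against 8.60 CPM). The lipase Abhd12 rose by 0.42, a call that ended without WT replicate 2 (0.33). Leaving out either WT library gave 3 rising and 1 falling, and upper-quartile scaling or plain library size gave 1 falling.

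Among 12 tested prostanoid synthases and inactivating enzymes outside the 10 genes, 2 rose and 1 fell (median 0.19), and the 25% called was below the 28.8% of all tested genes. Tbxas1, thromboxane A synthase, stood at 34.2 against 20.4 CPM and rose by 0.74 (SE 0.132, edgeR adjusted p = 0.000326). Hpgds, the synthase that makes PGD2 in blood cells, stood at 27.5 against 42.5 CPM and fell by 0.62 (SE 0.130, edgeR adjusted p = 0.00141). These 2 enzymes use the same precursor, PGH2, and moved in opposite directions. Akr1b3, which can make PGF2 alpha in mouse, was at 0.29 (edgeR adjusted p = 0.0460), a call lost under RLE factors, under DESeq2, and when cKO replicate 2 or either WT library was left out (0.21 to 0.37). Cbr3, a carbonyl reductase, did not pass (0.31, edgeR adjusted p = 0.0782). The count of rising enzymes was 5 with upper-quartile factors, 4 with library size only and 1 in the settings that lost Akr1b3. Hpgd, the main enzyme that inactivates PGE2, had 0 to 5 counts per library, and Ptgds, the PGD2 synthase of brain, had 0 in every library.

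Only 4 of 9 other prostanoid receptors and transporters could be tested, of which 2 fell and 1 rose (median -0.23). On so few genes this is 75% called, against 28.8% of all tested genes. Ptgir, the prostacyclin receptor, had 524 and 606 counts in the libraries labelled cKO and 676 and 983 in WT, and its level of 43.7 CPM against 73.0 CPM fell by 0.74 on the log2 scale (SE 0.110, edgeR adjusted p = 5.08e-05). It couples to cyclic AMP as EP2 and EP4 do, and it went the opposite way from Ptger4. Slco2a1, which takes up prostaglandins from outside the cell, was at 1.16 (edgeR adjusted p = 0.0165), and that call was lost under DESeq2 (1.17) and on leaving out cKO replicate 1 (0.97), WT replicate 1 (1.06) or WT replicate 2 (1.26). Abcc4, an exporter of PGE2, was at -0.35 (edgeR adjusted p = 0.0227), and its call was lost under upper-quartile scaling (-0.25), plain library size (-0.28), DESeq2 (-0.35), and on leaving out WT replicate 1 (-0.37) or WT replicate 2 (-0.33). Ptger1 did not pass (-0.12). Under DESeq2, or on leaving out either WT library, 0 were called higher and 1 lower, and leaving out cKO replicate 1 gave 0 and 2. At an unadjusted p under 0.05, with all 4 libraries, 1 was higher and 2 lower. Upper-quartile scaling or plain library size called 1 lower.

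Of 12 tested genes elsewhere in the leukotriene and lipoxygenase pathways, 3 rose and 1 fell (median 0.16, 33.3% called against 28.8% of all tested genes). Ltc4s, leukotriene C4 synthase, had 103 and 140 counts in the libraries labelled cKO and 29 and 57 in WT, and rose by 1.30 (SE 0.241, edgeR adjusted p = 0.000472). Mgst2, a microsomal glutathione transferase that can also make leukotriene C4, rose by 1.19 (SE 0.154, 33.4 against 14.7 CPM). Cyp4f18, which in mouse inactivates leukotriene B4 in neutrophils, had 86 and 155 counts against 34 and 35 and rose by 1.58 (SE 0.263, edgeR adjusted p = 0.000178). Abcc1, the exporter of leukotriene C4, fell by 0.42 (SE 0.0912, 431 against 577 CPM), a call that ended without WT replicate 2 (-0.38). With the replicate number as a block 2 genes fell. Of the neutrophil markers 7 of 9 tested were higher and 1, Mmp8, was lower in the same libraries, and their part in these changes was not tested. Alox15, the 12/15-lipoxygenase gene of mouse macrophages, had 0 or 1 counts per library.

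**Figure D4:**
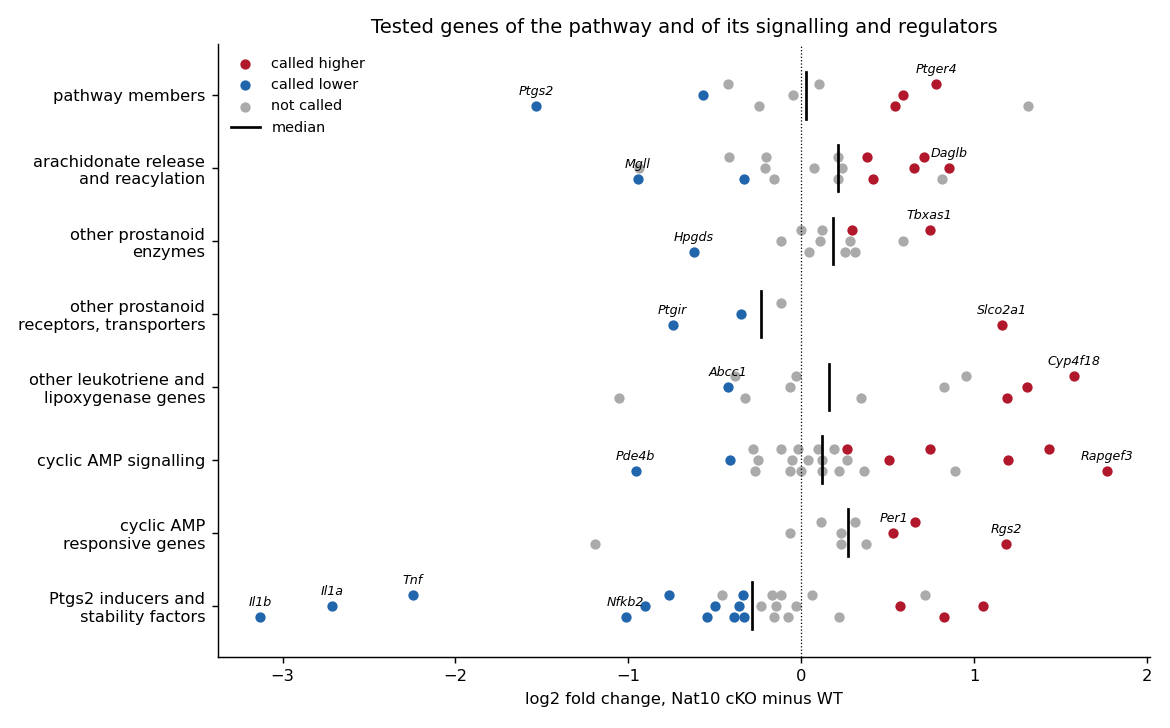
Change of level on the log2 scale, positive where the libraries labelled Nat10 cKO were higher (x axis), of each tested gene in 8 lists (rows), red where called higher, blue where called lower and grey where not called, with the median of each list as a black line. Cytokine genes that induce Ptgs2 lie farthest to the left, Il1b at -3.13, and Ptgs2 itself lies at -1.53, while the medians of the other lists lie between -0.23 and 0.27.

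Of 26 tested inducers and transcript stability factors of Ptgs2, 12 fell and 3 rose (57.7% called against 28.8% of all tested genes, median -0.28). The list holds cytokines whose fall in these libraries was already known when it was written, so it is no independent evidence of direction. Il1b, interleukin 1 beta, stood at 41.9 against 367 CPM, which is -3.13 on the log2 scale (SE 0.114), Il1a at 38.7 against 254 CPM (-2.71, SE 0.107) and Tnf at 238 against 1131 CPM (-2.25, SE 0.107). These are classical inducers of cyclooxygenase 2 in macrophages, and the fold change of each was larger than the -1.53 of Ptgs2. Their part in the fall of Ptgs2 was not tested. Nfkb2, an NF-kappa B subunit, fell by 1.02 (SE 0.0943). The 3 members that rose were Cebpa (0.83), which encodes a C/EBP factor, and Zfp36l1 (0.57) and Zfp36l2 (1.05), which encode proteins that destabilise transcripts. The call of Zfp36l1 was lost under DESeq2 (0.56) and on leaving out cKO replicate 1 (0.43), WT replicate 1 (0.62) or WT replicate 2 (0.50). The list holds 3 genes of the C/EBP factors that bind the palindrome printed above, and they differed. Cebpa rose, from 48.9 to 86.7 CPM, Cebpb did not pass (-0.03), and Cebpd was at -0.39 (edgeR adjusted p = 0.0485), a call lost in 6 of 12 alternatives, among them leaving out cKO replicate 1 (-0.22), WT replicate 1 (-0.37) or WT replicate 2 (-0.42). These 5 genes were named after their values were seen. Without WT replicate 2 the falling members numbered 7.

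Cyclic AMP is what EP2 and EP4 signal through. Of 25 tested genes of this signalling step, 6 rose and 2 fell (median 0.12), or 32% called, near the 28.8% of all tested genes. Gnas, the stimulatory G protein subunit, stood at 360 against 215 CPM and rose by 0.74 (SE 0.0921), the adenylyl cyclase Adcy3 rose by 1.19 (SE 0.189, 21.2 against 9.42 CPM) and the cyclic AMP sensor Rapgef3 rose by 1.77 (SE 0.352, 4.69 against 1.33 CPM). Pde4b, a phosphodiesterase that degrades cyclic AMP, fell by 0.96 (SE 0.117, 34.4 against 66.8 CPM). Leaving out either WT library gave 1 falling gene, and leaving out cKO replicate 1 gave 4, as did the replicate number as a block. The rising genes numbered 4 when WT replicate 2 was left out.

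Immediate genes that cyclic AMP can induce showed 3 of 10 tested higher and 0 lower in edgeR (median 0.27, 30% called against 28.8% of all tested genes), with 5 higher and 1 lower at an unadjusted p under 0.05. DESeq2 and limma-voom also called 3 higher and 0 lower. Rgs2, a regulator of G protein signalling, rose by 1.18 (SE 0.197, 15.1 against 6.53 CPM), and Odc1, ornithine decarboxylase, rose by 0.66 (SE 0.105, 109 against 69.2 CPM). The clock gene Per1 rose by 0.53 (SE 0.143), a call that ended without WT replicate 2 (0.48). Fos was at 0.31 (edgeR adjusted p = 0.0671). With upper-quartile factors or the replicate number as a block 5 were higher. With no filter on low counts 1 gene of the list was called lower. It was not among the 10 tested in the main fit, and none of those 10 was called lower in that setting.

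Genes whose pattern over the 4 libraries was most like that of Ptgs2, by the Euclidean distance of centred log2 CPM, were Rab11fip1 (distance 0.0531), Slco3a1 (0.0746) and the chemokine gene Cxcl10 (0.0825). Cxcl10 had levels of 50.1 and 46.2 CPM in the libraries labelled cKO and 132 and 149 CPM in WT. Those most like Alox5 were Ajuba (0.101), Cenpe (0.105) and Lig1 (0.108), a likeness to a gene with 6 to 22 counts per library. Likeness over 4 libraries says nothing of shared function or control.

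The deposited table carries its own pathway annotation, and it was read after the results above. Of 85 genes annotated to arachidonic acid metabolism, 7 of the 10 among them, 28 were tested, of which 7 rose and 4 fell. The median was 0.28, with 39.3% called against 28.8% of all tested genes. Calls already given are repeated here, because all but 8 of the 28 stood among the 10 genes or the lists above. Among the 8 of these that no list above held, the glutathione peroxidases Gpx1 (472 against 255 CPM, log2 fold change 0.89), Gpx8 (7.57 against 1.82 CPM, 2.04), Gpx3 (11.3 against 4.71 CPM, 1.27) and Gpx7 (4.67 against 2.29 CPM, 1.03) rose, and Plaat3, a phospholipase A and acyltransferase, fell by 1.07 (3.89 against 8.17 CPM). They were named because they passed the test. The stromal and osteoblast markers given above were higher in the same libraries, and their part in these rises was not tested.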

How the data were processed

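RNA-seq libraries of 4 mouse cultures were compared, 2 labelled Nat10 conditional knockout and 2 WT. The authors deposited unnormalized read counts for each gene, with 0 other per-sample columns. The submitters' processing notes name fastp 0.20.0, STAR 2.7.9a, featureCounts 2.0 and the build mm39 (GRCm39). How these were set, strand included, was not given in the sources used here.

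Genes were kept with the default filter of edgeR 4.0.16 (filterByExpr, 10 counts at the median library size in 2 libraries), scaled with TMM factors and tested in R 4.3.3 with glmQLFit and glmQLFTest, two-sided, group only, Benjamini-Hochberg adjustment over all 11448 tested genes, threshold 0.05. Intervals are 95% and unadjusted. Exon lengths came from GENCODE M21 (GRCm38). The symbol Zadh2 in the table stands for Ptgr3 in the list of enzymes, and for Dpep2, on 2 rows, the first row was used.

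Chi-square per gene between replicates was 6.16 in WT and 11.2 in the knockout group, above sampling noise. In data simulated for this comparison (11297 genes), 37.88% of 1.5-fold, 86.57% of 2-fold and 98.44% of 4-fold changes were recovered, so small changes can be missed. There 66, 67 and 64 genes were changed and 11100 were not, while 28.8% of tested genes were called in the real data. The recovery rates therefore need not hold for the real data.

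The members and lists were chosen with earlier results of these data known. Genes named are the 10 members, from other lists up to 4 tested genes with the smallest p and all that passed where they were 6 or fewer, from marker lists up to 3 of the highest level, and the 3 genes most like the member with the highest and with the lowest fitted fold change, whether called or not. Exceptions are said to be chosen after their values were seen, or are given for their low counts. Alternatives were other scalings and filters, DESeq2 1.42.0, limma-voom (limma 3.58.1), the replicate number as a block, and each library left out.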

Additional observations from a re-analysis of the deposited data

How the results depend on the processing

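The 5 calls among the 10 genes, 3 higher and 2 lower, held under all 12 alternatives (Ptgs2 -1.63 to -1.44, Ptges3 -0.61 to -0.47, Alox5ap 0.48 to 0.64, Lta4h 0.49 to 0.69, Ptger4 0.65 to 0.94), and none of the other 5 genes passed in any. Pla2g4a, not called, changed sign when cKO replicate 2 (0.06) or WT replicate 2 (0.01) was left out, under upper-quartile scaling (0.05) and under library size alone (0.02). The ratio of Ptgs2 to Ptgs1 reads, libraries labelled cKO over WT, was 0.458, and 0.378 to 0.582 with 1 library left out. Other pathway genes called higher numbered 11, and 7 to 10 with 1 library left out, and those called lower 6, and 4 to 6; the counts were 16 and 4 under upper-quartile factors, 13 and 4 under library size alone and 8 and 5 in DESeq2. Upper-quartile factors moved the median log2 fold change of all genes from 0.0075 to 0.105 and library size alone to 0.0741. Against 1652 higher and 1650 lower over all genes, without WT replicate 1 the test called 1058 higher and 1010 lower, and without WT replicate 2 it called 864 and 973. DESeq2 called 1065 and 1208. Nothing in the labels says that replicate numbers pair libraries, and 2 pairs are too few to show it either way (correlation of same-numbered deviations 0.112). With the replicate number as a block, 3 of the 10 genes were higher and 2 lower, 14 other pathway genes were higher and 7 lower, and 2126 and 2175 of all genes. Depth limits Alox5 and Ptgs1, with 6 to 28 counts per library, and 29 of the 74 other pathway genes were too low to test.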
